A study of Mus musculus with 12 samples.

Results

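Neurotrophin receptors and their ligands were read in dorsal root ganglia, the clusters of sensory nerve cell bodies beside the spinal cord. The members are the probes that the array annotation gives to Trk receptor genes, to the p75 receptor gene Ngfr and to the neurotrophin genes. They were 5 of the 16593 named genes on the array, read by 12 of its 25697 probes: 3 probes of Ntrk2, 4 of Ntrk3, 1 of Ngfr, 3 of Bdnf and 1 of Ntf5. Ntf3 had 0 probes under that symbol in the annotation used, so it was not analysed here. A total of 10 of the 12 probes were bright enough to test.

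The mutant group was 6 pools from Isl1-Cre//c-Maf conditional mutant mice, in which Cre recombinase driven by Isl1 acts on Maf, the gene of the transcription factor c-Maf. The other group was 6 control pools, whose genotype the labels give as wildtype without saying whether these animals carried Cre or a conditional allele. Every pool held total RNA of ganglia of lumbar levels 3 to 6 from animals 15 days old on a C57/BL6;129Ola mixed background, and each was read on 1 single-colour Illumina array. The number of animals behind each pool is unknown here, so p-values measure only the spread between pools, which may be technical in part. Isl1 is expressed by the sensory neurons and not only by those that use Maf, and a whole ganglion also holds glia, vessels, connective tissue and immune cells.

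As background, neurotrophins are secreted survival and growth factors that act through Trk receptor tyrosine kinases and through p75. Ntrk2 encodes TrkB, the receptor of BDNF and of neurotrophin-4, and Ntrk3 encodes TrkC, the receptor of neurotrophin-3. Ngfr encodes p75, which binds neurotrophins in general. In mouse sensory ganglia TrkB marks D-hair and some rapidly adapting touch neurons, TrkC marks proprioceptors and slowly adapting touch neurons, and satellite glia and Schwann cells carry truncated TrkB and p75. The receptor levels of a whole ganglion therefore depend on its mix of neuron classes, although glia also add to them.

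Because the targeted gene encodes a DNA-binding protein, the start regions of the members are shown, from 250 bases before to 50 after the annotated start (RefSeq, GRCm38.p6, the strand of the gene). The table used held 1 such window for Ntrk2, 1 for Ngfr and 7 for Bdnf, which has several start sites. They were searched on both strands for TGCTGAC, the 7 letters that open the Maf recognition element. These letters lay in 1 of the 7 Bdnf windows and in neither the Ntrk2 nor the Ngfr window, against 4.67% of all 32851 windows of the table. A match of letters is a description and does not show binding. The Ntrk2 window is chr13:58806319-58806618 on the plus strand, the Ngfr window chr11:95587649-95587948 on the minus strand, and the Bdnf window with the match chr2:109722671-109722970 on the plus strand. Capitals mark the match.
Ntrk2: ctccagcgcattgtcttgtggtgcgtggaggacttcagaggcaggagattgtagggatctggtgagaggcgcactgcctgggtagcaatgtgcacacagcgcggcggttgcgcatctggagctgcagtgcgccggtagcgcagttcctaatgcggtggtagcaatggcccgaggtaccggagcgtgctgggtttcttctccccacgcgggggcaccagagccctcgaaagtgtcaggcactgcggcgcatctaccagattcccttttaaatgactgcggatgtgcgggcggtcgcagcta
Ngfr: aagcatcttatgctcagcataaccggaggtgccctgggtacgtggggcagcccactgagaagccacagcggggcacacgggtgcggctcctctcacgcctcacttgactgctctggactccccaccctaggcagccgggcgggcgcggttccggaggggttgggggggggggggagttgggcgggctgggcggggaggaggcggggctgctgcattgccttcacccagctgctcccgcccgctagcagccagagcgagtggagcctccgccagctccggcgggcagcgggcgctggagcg
Bdnf: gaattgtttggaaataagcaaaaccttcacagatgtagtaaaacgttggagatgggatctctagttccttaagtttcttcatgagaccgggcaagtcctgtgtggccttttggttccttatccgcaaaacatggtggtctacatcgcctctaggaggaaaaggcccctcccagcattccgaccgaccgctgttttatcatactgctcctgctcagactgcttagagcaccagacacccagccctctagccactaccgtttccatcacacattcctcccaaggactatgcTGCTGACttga

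Levels below are background-corrected, quantile-normalised log2 intensities, and changes are differences of them, mutant minus control. A probe was called when its limma p, adjusted by the Benjamini-Hochberg method over all tested probes, was under 0.05. The targeted gene was read first. Maf was detected in 0 of 6 mutant pools and in 6 of 6 control pools. Its probe gave 4.49 to 4.70 in mutant pools, with a median of 4.56, and 7.11 to 7.87 in control pools, with a median of 7.39. No mutant pool came near a control pool, and the level was at least 4.48-fold lower in mutants (limma adjusted p = 6.3e-09). Where the probe lies relative to the deleted part of the gene was not analysed here. Between 12822 and 13491 probes were detected on each array. The 14 general sensory neuron markers with a probe included 12 that were tested and 2 that were below the filter, Snap25 and Nefl. Of the 12 tested, 0 were called, and their median change was 0.02. Among them were Isl1 (a change of -0.30, limma adjusted p = 0.77), Syt1 (0.15, adjusted p = 0.87) and Pou4f1. Isl1 also drives Cre in the mutants, and whether this alters its level was not tested. Mutant replicate 3 stood apart, with a median correlation of 0.981 with the other arrays, against 0.986 to 0.989 for the rest.

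No receptor or ligand probe was called: 0 of 10, where the same rule called 0.235% of all 13177 tested probes, 0.212% as lower and 0.0228% as higher. At an unadjusted p under 0.05 there was 1 of 10 member probes, the dim Bdnf probe, against 6.34% of all tested probes. No member had all 6 mutant pools on one side of all 6 control pools, which 0.562% of tested probes had in the lower and 0.152% in the higher direction. The estimates were below 0 for 8 probes and above 0 for 2, with a median of -0.05, against a median of 0.00 over all tested genes. The 95% intervals of all 10 lay between -0.60 and 0.34 on the log2 scale. In bulk RNA fewer cells of a class and less RNA per cell cannot be told apart.

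**Figure D1:**
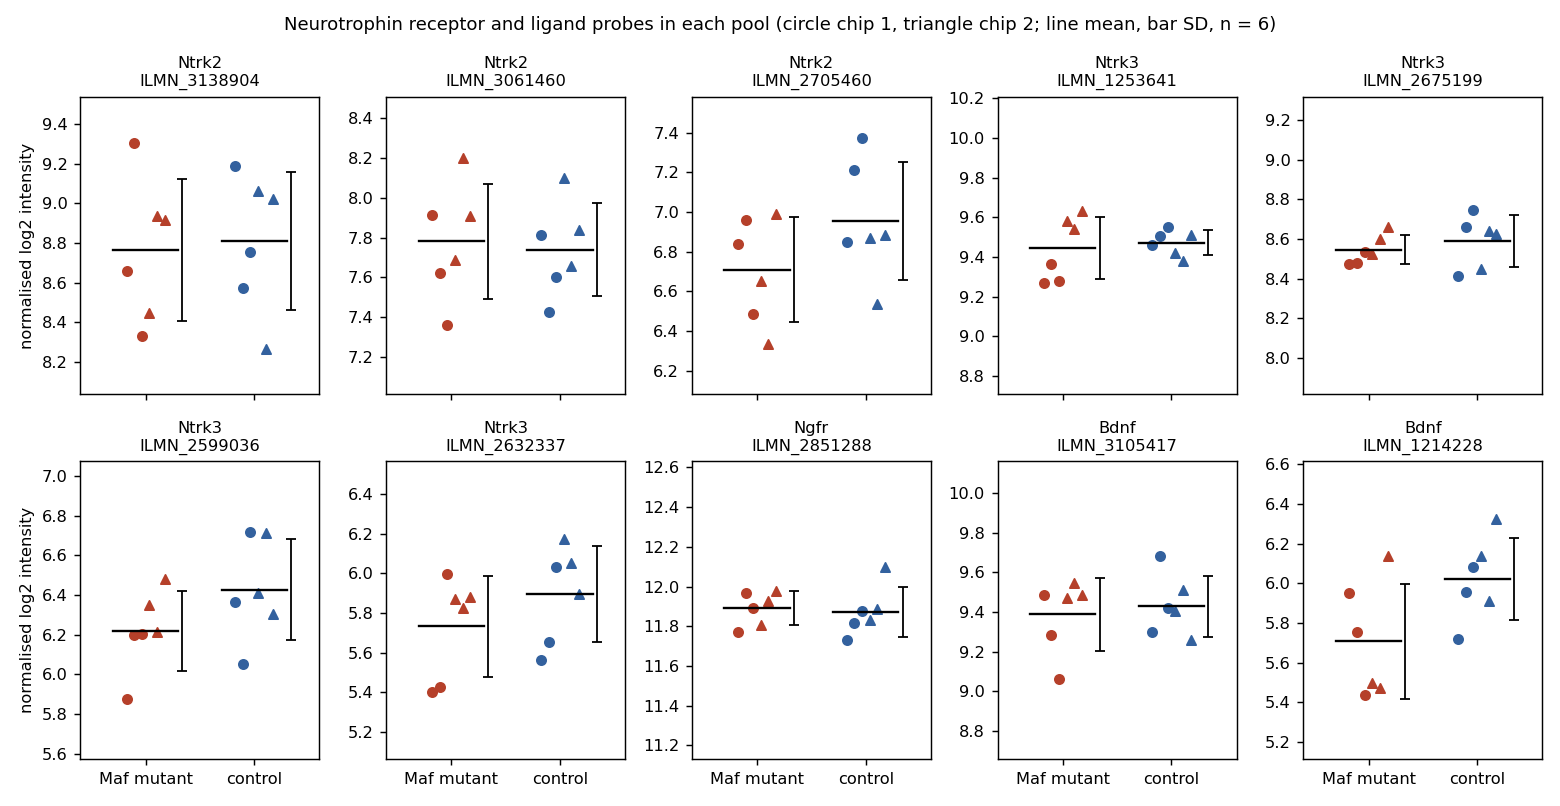
Normalised log2 intensity (vertical axis, a span of 1.5 in every panel) of each tested probe in the 6 Maf mutant pools (left, red) and the 6 control pools (right, blue). Circles are pools on chip 1 and triangles pools on chip 2, the horizontal line is the mean and the bar the SD, and in all 10 panels the groups overlap.

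Ntrk2, the TrkB gene, did not pass the test with any of its 3 probes. The brightest, ILMN_3138904, ran from 8.33 to 9.30 in mutant pools, with a median of 8.79, and from 8.27 to 9.19 in control pools, with a median of 8.89. Both groups covered nearly the same range. The means were 8.76 ± 0.36 in mutants and 8.81 ± 0.35 in controls (SD, n = 6 each), a change of -0.05 (SE 0.18, limma adjusted p = 0.99). Its interval, -0.43 to 0.34, was the widest of the 10 and covers folds from 0.742 to 1.26.

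The second Ntrk2 probe, ILMN_3061460, which the annotation ties to the same transcript record, ran from 7.36 to 8.20 in mutants and from 7.42 to 8.10 in controls. The medians were 7.80 and 7.73, and the change was 0.04 (SE 0.14, limma adjusted p = 0.99). The third, ILMN_2705460, is tied to another transcript record of the gene. It ran from 6.33 to 6.99 in mutants, with a median of 6.75, and from 6.53 to 7.38 in controls, with a median of 6.88. Here 2 mutant pools lay below all controls and 2 control pools above all mutants. The change was -0.24 (SE 0.15, limma adjusted p = 0.87), with an interval from -0.56 to 0.07. Ntrk2 makes a full-length kinase and truncated forms without the kinase, and which of them each probe reads was not analysed here.

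Ntrk3, the TrkC gene, did not pass with any of its 4 probes. The brightest, ILMN_1253641, averaged 9.44 ± 0.16 in mutants and 9.47 ± 0.06 in controls (SD, n = 6 each), a change of -0.03 (SE 0.08, limma adjusted p = 0.99). The next, ILMN_2675199, on the same transcript record, averaged 8.55 ± 0.07 in mutants and 8.59 ± 0.13 in controls, a change of -0.04 (SE 0.07, adjusted p = 0.96). Their intervals cover folds from 0.873 to 1.10 and from 0.869 to 1.08. They bear on that record alone, and which TrkC isoforms any of the 4 probes reads was not analysed here. Both dimmer probes belong to another transcript record. ILMN_2599036 ran from 5.88 to 6.48 in mutants and from 6.05 to 6.72 in controls, with medians of 6.21 and 6.39. ILMN_2632337 ran from 5.40 to 6.00 in mutants and from 5.56 to 6.17 in controls, with medians of 5.85 and 5.96. For each of them 1 of 6 mutant pools lay above the control mean. Their changes were -0.21 (SE 0.12) and -0.16 (SE 0.13), with limma adjusted p-values of 0.87 and 0.92.

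The brightest Ntrk3 probe was the member whose groups differed most between the chips. Each BeadChip carried replicates 1 to 3 or 4 to 6 of both groups. On chip 1 it gave 9.27, 9.37 and 9.28 in mutant pools, against 9.46, 9.51 and 9.55 in control pools. On chip 2 it gave 9.58, 9.54 and 9.63 in mutant pools, against 9.42, 9.38 and 9.51 in control pools. All 3 mutant pools thus lay below their chip's controls on the first chip and above them on the second, a change of -0.20 and of 0.15. The difference between those changes was 0.35 (SE 0.12), and its interaction term did not pass over all probes (limma adjusted p = 1.00, unadjusted p = 0.016). In that test 2.82% of all probes had an unadjusted p under 0.05 and 0% were called. The second Ntrk3 probe stood at -0.11 on chip 1 and 0.02 on chip 2. Bright Bdnf went the same way, at -0.19 and 0.11, and the other 9 members had limma adjusted p-values of 1.00 for the interaction as well. In a fit with chip beside genotype, chip alone called 0 of 13177 probes.

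**Figure D2:**
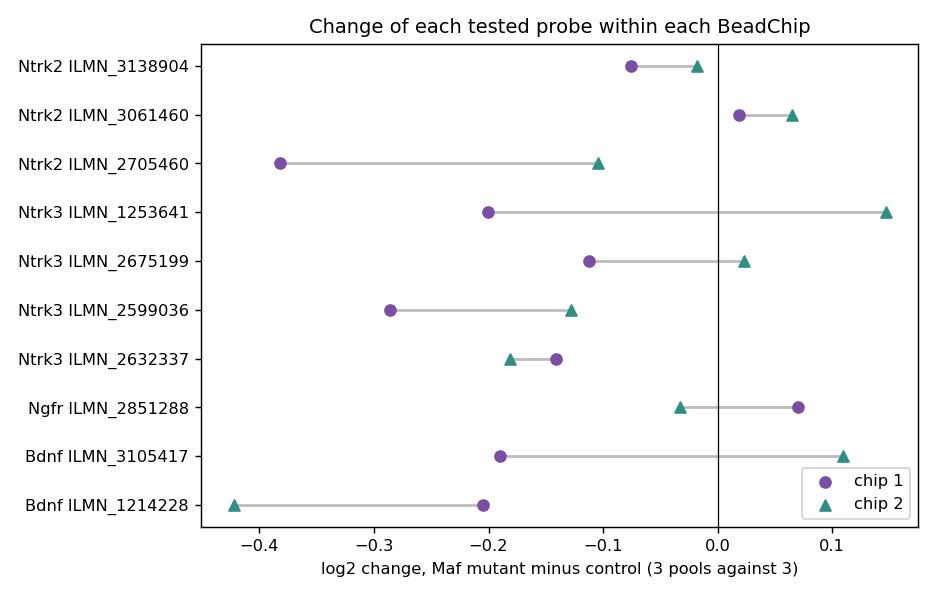
Log2 change, Maf mutant minus control, of each tested probe within chip 1 (circles) and within chip 2 (triangles), each from 3 pools against 3. The brightest Ntrk3 probe spans -0.20 to 0.15, while the dim Bdnf probe, the brightest and the dimmest Ntrk2 probe and both dimmer Ntrk3 probes stay below 0 on both chips.

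Ngfr, the p75 gene, was read by 1 probe. ILMN_2851288 ran from 11.77 to 11.98 in mutants, with a median of 11.91, and from 11.73 to 12.10 in controls, with a median of 11.85. All 6 mutant pools lay inside the control range. The means were 11.89 ± 0.09 and 11.87 ± 0.12 (SD, n = 6 each), a change of 0.02 (SE 0.07, limma adjusted p = 0.99) with folds from 0.908 to 1.13 in its interval.

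Of the ligands, Bdnf encodes brain-derived neurotrophic factor, which in mouse ganglia is made mostly by peptidergic nociceptors. Its bright probe ILMN_3105417 ran from 9.06 to 9.55 in mutants, with a median of 9.48, and from 9.26 to 9.68 in controls, with a median of 9.41. Mutant replicate 3 was the lowest and control replicate 2 the highest of the 12 pools, and the other 10 overlapped. The change was -0.04 (SE 0.10, limma adjusted p = 0.98).

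The dim Bdnf probe ILMN_1214228 gave the lowest p of the 10 members. It ran from 5.44 to 6.14 in mutants, with a median of 5.63, and from 5.72 to 6.33 in controls, with a median of 6.02. Mutant replicates 3, 4 and 5 lay below every control pool, and mutant replicates 1, 2 and 6 lay within the control range. The means were 5.71 ± 0.29 and 6.02 ± 0.21 (SD, n = 6 each), a change of -0.31 (SE 0.13, unadjusted p = 0.034, limma adjusted p = 0.75). It ranked 595th by p of the 13177 tested probes. The dim and the bright Bdnf probe differed by -0.27 in their changes (exact two-sided permutation p = 0.14, and 0.60 adjusted over 10 pairs). The remaining Bdnf probe, ILMN_1246842, is tied to the same transcript record as the dim probe. It was detected in 3 of 6 mutant pools and 1 of 6 control pools and was not tested. Its mean was higher in mutants, at 5.23 ± 0.19, than in controls, at 5.12 ± 0.31, the other way from the dim probe. The lowest mutant pools of both probes lay near or below the lowest detected levels of the mutant arrays, which averaged 5.28. Ntf5, the gene of neurotrophin-4, was detected in 0 of 6 mutant and 0 of 6 control pools, and its probe gave 4.95 to 5.17 and 4.82 to 5.21.

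**Figure D3:**
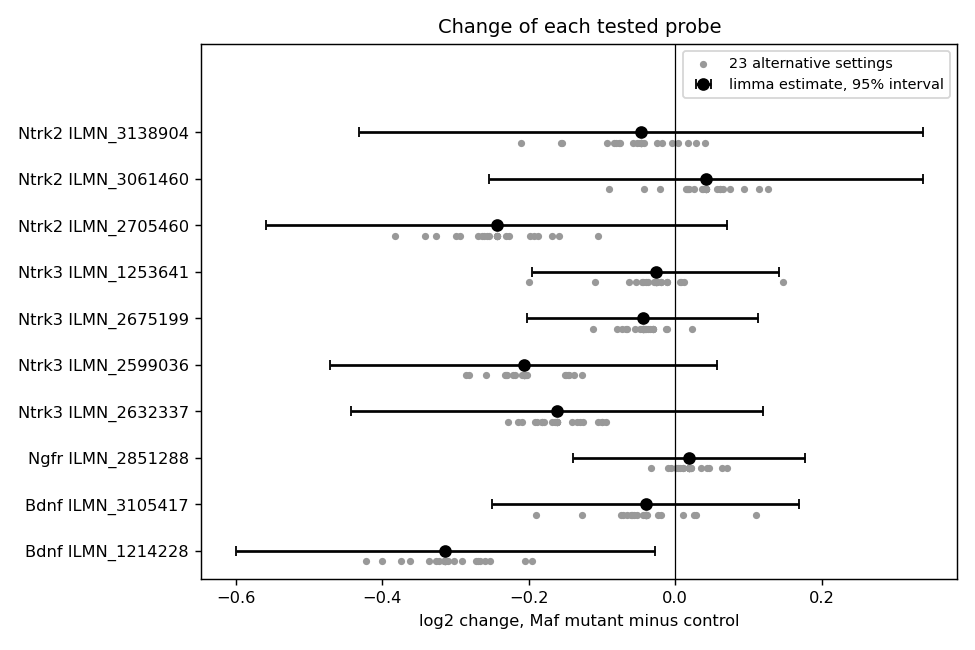
Log2 change, Maf mutant minus control (horizontal axis), of each tested probe with its 95% interval (black), and the same change under 23 alternative settings (grey points). The interval of the dim Bdnf probe, -0.60 to -0.03, is the only one of the 10 that does not hold 0, before adjustment over all probes.

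Probes of 1 gene were also set against each other. Among the 3 Ntrk2, 6 Ntrk3 and 1 Bdnf pairs of tested probes, the exact permutation p of the difference in change was 0.14 or more, and 0.60 or more adjusted over the 10 pairs (the smallest p the design allows is 0.00216). The largest difference was -0.29, between the dimmest and the middle Ntrk2 probe (exact permutation p = 0.28).

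The brightest and the dimmest Ntrk2 probe had the widest spans over the 12 pools of the 10 tested members. The brightest probe had a residual SD within groups of 0.354, above that of 92.7% of tested probes, and its highest and lowest pools, mutant replicate 2 and control replicate 5, differed 2.05-fold. The dimmest Ntrk2 probe spanned 2.06-fold. The middle Ntrk2 probe spanned 1.79-fold, the dimmer Ntrk3 probes 1.79-fold and 1.71-fold, and dim Bdnf 1.85-fold. Bright Bdnf spanned 1.54-fold, Ngfr 1.29-fold and the brighter Ntrk3 probes 1.28-fold and 1.26-fold. The 3 Ntrk2 probes did not rank the pools alike. Over the 12 pools Pearson's r was 0.49 between the brightest and the middle probe (Spearman's rho 0.42), 0.29 between the brightest and the dimmest (rho 0.33) and -0.28 between the middle and the dimmest (rho -0.26). Among Ntrk3 probes r ran from 0.27 to 0.69. These correlations are descriptions over 12 arrays that share 2 chips and 1 normalisation.

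The pool-to-pool pattern of the brightest Ntrk2 probe was shared with many others. Pearson's r over the 12 arrays exceeded 0.90 with 47 other tested probes, where the median tested probe had 1 such partner and 0.933% of tested probes had as many or more. The most alike genes were Tbrg4 (r = 0.97), Nlk, the nemo-like kinase (r = 0.97), and Tgfbr3, the type III TGF-beta receptor (r = 0.95). Tbrg4 gave 8.01 in mutant replicate 2 and 6.86 in mutant replicate 3, against 7.79 in control replicate 1 and 6.77 in control replicate 5. High and low pools thus occurred in both groups, and the changes of Tbrg4, Nlk and Tgfbr3 were 0.02, 0.02 and 0.05 (limma adjusted p = 1.00, 0.99 and 0.99). What else differed between these pools was not tested. For the other genes the closest partners were Kcnh2, a potassium channel (r = 0.86), Zfp12 and Irx3 for Ntrk3, Usp19, Emc4 and Xylt2 for Ngfr (r from 0.81 to 0.84), and Klhl8 (r = 0.95), Trpc1 and Zfyve27 for Bdnf.

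**Figure D4:**
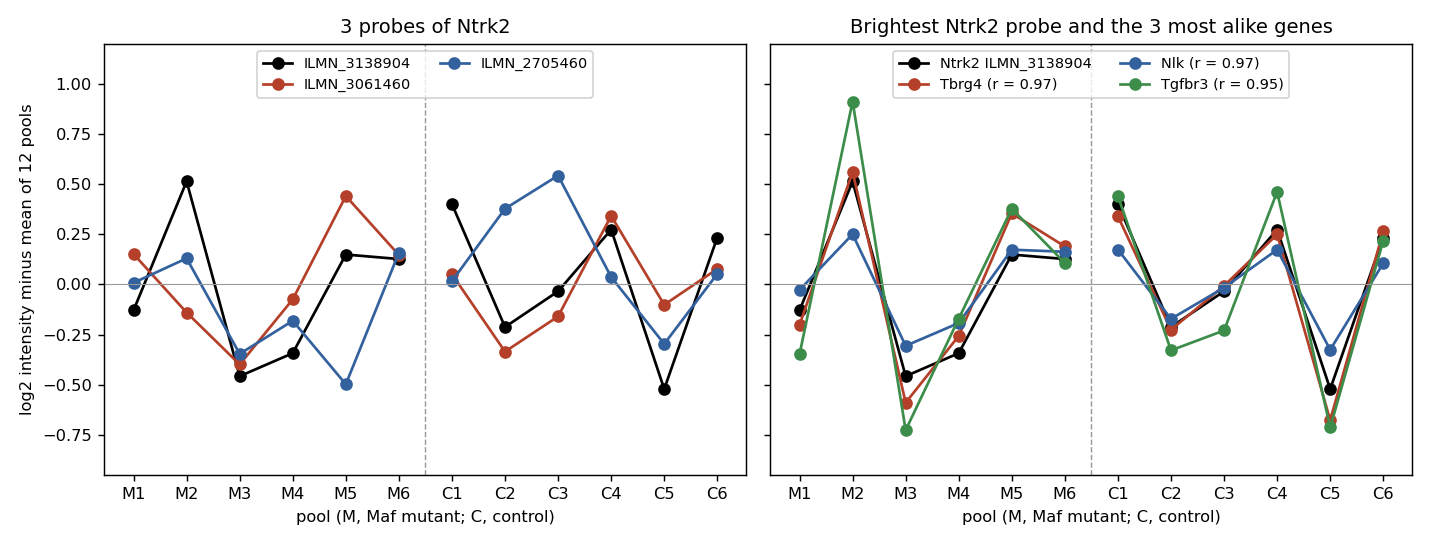
Log2 intensity minus the mean of the 12 pools, for Maf mutant pools M1 to M6 (left of the dashed line) and control pools C1 to C6. The left panel shows the 3 Ntrk2 probes, which rank the pools differently, and the right panel the brightest Ntrk2 probe with Tbrg4, Nlk and Tgfbr3, which are high in M2 and C1 and low in M3 and C5.

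The wider pathway was described from 5 lists: partners of p75, adaptors that bind activated Trk receptors, downstream kinases and small GTPases, proteins that process or release neurotrophins, and genes known to respond to them. Of 66 tested genes 0 were called. At an unadjusted p under 0.05 there were 6, or 9.09%, against 6.34% of all probes. A total of 39 estimates were above 0 and 27 below, with a median of 0.01.

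Among the p75 partners (13 tested, median 0.03) the sortilin relatives Sorcs3 (-0.24, limma adjusted p = 0.76) and Sorcs2 (-0.26, adjusted p = 0.78) had the smallest p-values, and sortilin itself, Sort1, stood at 0.06. Among Trk adaptors (13 tested, median 0.01) the docking protein Gab1 stood at 0.13 and Sh2b1 at -0.09. Downstream kinases and GTPases (15 tested, median -0.06) were led by Rps6ka5 at 0.22 and Rps6ka3 at -0.12. Of the 10 tested processing and transport genes 9 were above 0 (median 0.08), with Cadps2, which promotes BDNF release, at 0.19 (adjusted p = 0.78) and the granin Scg2 at 0.21. Among responsive genes (15 tested, median 0.02) Arc stood at -0.41 (adjusted p = 0.69), the largest change of the 66, Tac1 at 0.25, and the secretory granule protein Vgf at -0.08. Arc was dim, averaging 5.17 in mutants and 5.57 in controls, where the lowest detected levels of the mutant arrays averaged 5.28. The size of its change is therefore uncertain.

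Lists of genes of the neuron classes that carry each receptor were read beside it. These genes are not all particular to 1 class, and Ret is also in the list of non-peptidergic nociceptors. The TrkB list of D-hair and rapidly adapting touch neurons (9 tested, median -0.12) includes Maf, the targeted gene, whose fall is set by the design. In this list Maf and Calb2 were called lower and 0 genes higher. Calb2, the calcium-binding protein calretinin, averaged 8.71 ± 0.34 in mutants and 9.77 ± 0.34 in controls (SD, n = 6 each), a change of -1.06 (SE 0.17, limma adjusted p = 0.015). Its call ended without mutant replicate 1 or without control replicate 6, each with an adjusted p of 0.052, and on either chip alone. Of its other 7 tested genes, 3 had estimates below 0: the heavy neurofilament gene Nefh at -0.30 (adjusted p = 0.13), the transcription factor gene Shox2 at -0.43 (adjusted p = 0.78) and the receptor gene Ret at -0.12. The other 4 had estimates above 0: Necab2 at 0.24, the D-hair channel gene Cacna1h at 0.19, Cntnap2 at 0.16 and Pou4f3 at 0.06, with adjusted p-values of 0.75 or more. In this list 7 of 9 genes, Maf included, had an unadjusted limma p under 0.05, in both directions, against 6.34% of all probes. Its median moved to -0.03 over probes detected on all 12 arrays, a filter that leaves Maf out of the list. With Maf kept, it was -0.32 on chip 1 alone and -0.08 without control replicate 6. In the TrkC list (8 tested, median 0.10) Insyn2b fell by 0.77 (SE 0.12, adjusted p = 0.011), a call lost without replicates 5 and 6 of both groups (adjusted p = 0.15) and on either chip alone. Parvalbumin, Pvalb, stood at 0.07 (adjusted p = 0.96) and the proprioceptor transcription factor Etv1 at -0.14 (adjusted p = 0.93). Lmcd1 stood at 0.62 (adjusted p = 0.19), Nxph1 at 0.39 and Whrn at 0.31 (adjusted p = 0.52 each), Cdh13 at 0.11 and Heg1 at 0.08. In the TrkC list 6 of 8 estimates were thus above 0. An unadjusted limma p under 0.05 was found for 4 of these 8 genes, against 6.34% of all probes. Peptidergic nociceptor genes had 0 called of 8 (median 0.09), with Adcyap1 at 0.29 (adjusted p = 0.51). The non-peptidergic list had 0 called of 11 (median -0.03, with 0.16 on chip 1 alone and -0.13 on chip 2 alone). Ret and the itch receptor gene Mrgpra3 had its smallest p-values. Mrgpra3 stood at 0.93 (SE 0.63, adjusted p = 0.89), with an SD of 1.81 in controls and 0.35 in mutants. These lists were chosen with earlier results of these arrays known, and their counts are no independent evidence.

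**Figure D5:**
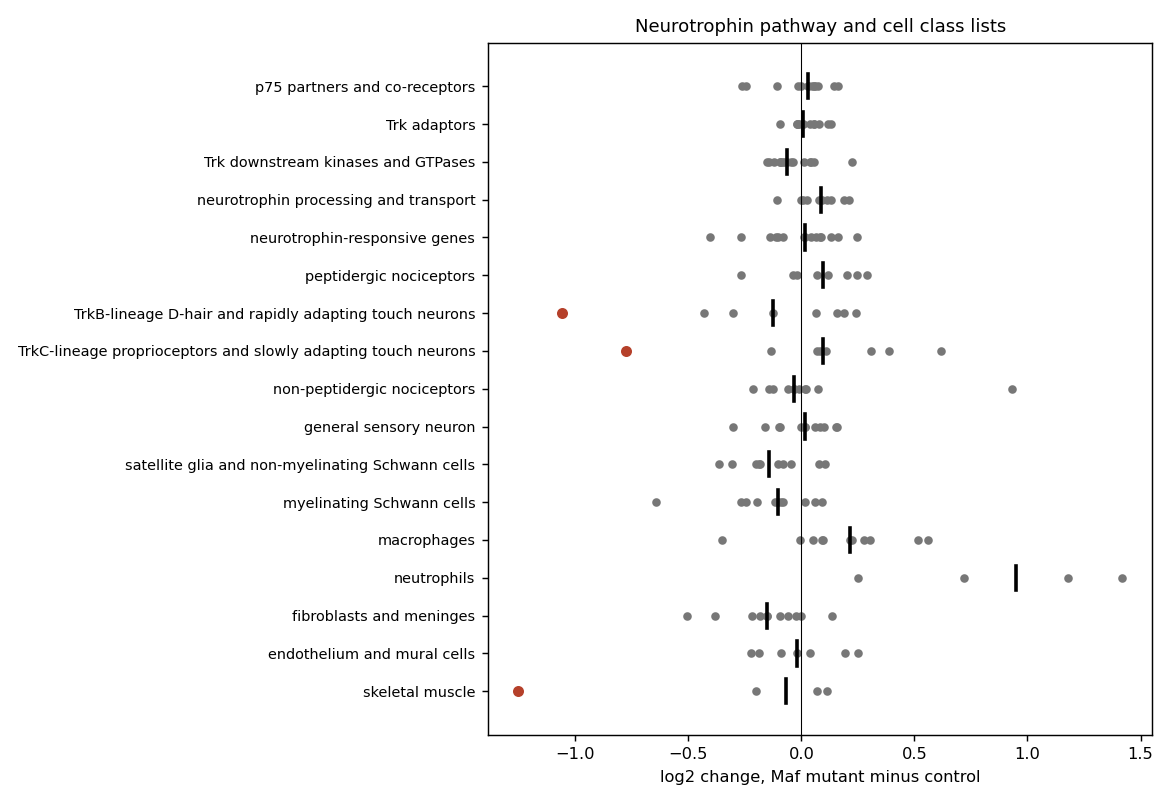
Log2 change, Maf mutant minus control (horizontal axis), of each tested gene of the 17 lists (points, 1 per gene; red where the adjusted p is under 0.05) with the list median (black line). Maf, at -2.87, lies off the axis and is not drawn; the red points are Calb2, Insyn2b and Myh8.

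Lists of the other cell types of a ganglion were read beside Ngfr and Ntrk2, which glia also express. The satellite glia and non-myelinating Schwann list had 0 called of 10, 8 below 0 and a median of -0.14, with S100b at -0.36 (limma adjusted p = 0.14) and the endothelin receptor gene Ednrb at -0.19 (adjusted p = 0.78). Without mutant replicate 3, the pool that stood apart, this median was -0.05. Its summed linear intensity ran from 8542 to 12122 in mutants and from 9694 to 12618 in controls. The myelinating Schwann list had 0 called of 11, 8 below 0 and a median of -0.10 (-0.04 without mutant replicate 1 and -0.18 without control replicate 6). The myelin genes Mbp, at -0.25 (adjusted p = 0.52), and Pmp2, at -0.64 (adjusted p = 0.75), had its smallest p-values, and its sums ran from 17654 to 21602 in mutants and from 19677 to 21949 in controls. Macrophage genes had 0 called of 11, 9 above 0 and 2 below, and a median of 0.22 (0.09 without control replicate 3). Their smallest p-values were those of the lysozyme genes Lyz2 at 0.56 (adjusted p = 0.14) and Lyz1 at 0.52 (adjusted p = 0.38), which are near-identical copies. The macrophage gene Mrc1 went the other way, at -0.35 (limma adjusted p = 0.78). The list summed to between 2238 and 3280 in mutants and between 1737 and 2545 in controls. Neutrophil genes (0 called of 4, median 0.95) were led by the calprotectin genes S100a8 at 1.42 (adjusted p = 0.52) and S100a9 at 1.18 (adjusted p = 0.68), and summed to between 387 and 1975 in mutants and between 205 and 616 in controls, with Camp, Mpo and Elane below the filter. Fibroblast and meningeal genes (0 called of 11) had a median of -0.15, with the collagen genes Col1a2 at -0.38 and Col1a1 at -0.22. Endothelial and mural genes (0 called of 7) had a median of -0.02, with Pecam1 at 0.19 and Flt1 at -0.19. In the skeletal muscle list the myosin heavy chain Myh8 fell by 1.25 (limma adjusted p = 0.0080), 1 called of 4, a call lost without replicates 5 and 6 of both groups (adjusted p = 0.15), on chip 1 alone (adjusted p = 0.34) and on chip 2 alone (adjusted p = 0.50). The other 3 tested genes did not share a direction: Atp2a1 stood at -0.20, Acta1 at 0.07 and Actn3 at 0.11, and the list median was -0.07. Myh4, Ckm, Tnnt3 and Myl1 were below the filter. The part of these cells in the receptor values was not tested.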

How the data were processed

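Total RNA of 12 ganglion pools was read on single-colour Illumina BeadChips. The deposited intensity values of each probe are GenomeStudio bead summaries, per the submitters' processing notes (version not given), neither background-subtracted nor normalized between arrays as their values show. Detection p-values of each probe and array stand beside them, per the file headers. A deposited table of processed intensity values, with no account of its making in the labels, served as an alternative only: it reaches -25.1, is on a linear scale and ranks probes as the arrays do.

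From the intensity values, log2 levels came from neqc (limma 3.58.1, R 4.3.3, offset 16). A probe was tested if 6 or more of the 12 arrays detected it (p under 0.05), which kept 13177 of 25697, with lmFit and eBayes on genotype alone. Symbols came from the platform annotation (23978 probes with 1 symbol, 0 with several, 1719 unnamed), of which 23962 matched RefSeq gene identifiers of GRCm38.p6. Each list gene was read by its brightest tested probe. The number of arrays limits the precision. In data simulated from these arrays with 200 changed probes among 13177, the fit recovered 65% of changes of 0.5 and 90% of changes of 1 on the log2 scale. It made 6 false calls. The changed probes were drawn at random, and the real data gave only 31 called probes. These shares are therefore not the power for any member. The naming rule took all member probes, Maf, the called genes and the 2 of smallest p of each list, and the 3 genes most correlated with each member. Sort1, Vgf, Pvalb, Etv1, Pou4f1, Mrc1, Acta1 and Actn3, and the listing of the TrkB and TrkC genes in full, were chosen after their values were seen. Members, lists and alternatives were chosen with earlier results of these data known. Alternatives were another offset, median scaling, the processed table, other filters, array weights, chip as a block, each chip alone, the replicate number as a block, and leaving out pools.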

Additional observations from a re-analysis of the deposited data

How the results depend on the processing

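No member probe was called under any of the 23 alternatives, and the lowest adjusted p of a member in them was 0.437 (dim Bdnf). Under all 23, 4 probes kept their sign: dim Bdnf between -0.42 and -0.20, the dimmest Ntrk2 probe between -0.38 and -0.10, and the dimmer Ntrk3 probes between -0.29 and -0.13 and between -0.23 and -0.09. These 4 were also the dimmest of the 10 tested members. Dim Bdnf and ILMN_2632337 reached down to 5.44 and 5.40, where the lowest detected levels of the mutant arrays averaged 5.28. The sizes of their changes are therefore uncertain. The 6 brighter members lay near 0 and turned sign in places. On chip 2 alone these were bright Bdnf (0.110), Ngfr (-0.0331), the brightest Ntrk3 probe (0.147) and the second Ntrk3 probe (0.0234). With array weights bright Bdnf stood at 0.0284 and the brightest Ntrk3 probe at 0.0115, with median scaling Ngfr stood at -0.00546, and without replicates 5 and 6 of both groups the middle Ntrk2 probe stood at -0.0901. Leaving out 1 pool gave -0.0744 to 0.0258 for bright Bdnf, -0.0102 to 0.0635 for Ngfr, -0.156 to 0.0403 for the brightest Ntrk2 probe, -0.0421 to 0.126 for the middle Ntrk2 probe and -0.0636 to 0.00833 for the brightest Ntrk3 probe. The highest values of bright Bdnf and of the brightest and middle Ntrk2 probes were those without mutant replicate 3. Differences between Ntrk3 probes also turned: the brightest minus the second (-0.0879) and minus ILMN_2632337 (-0.0591) on chip 1 alone, and ILMN_2599036 minus ILMN_2632337 (0.0539) on chip 2 alone. With 1 pool left out these ran from -0.0138 to 0.0506 for the brightest minus the second and from -0.104 to 0.0105 for ILMN_2599036 minus ILMN_2632337. The cause of these turns was not tested. The count of called probes, 31, was 4 on chip 1 alone, 1 on chip 2 alone and 6 without replicates 5 and 6 of both groups, each with fewer pools, and 21 to 36 with 1 pool left out. Deviations of same-numbered pools correlated at -0.12 to 0.19, over 0.1 in 3 of 6 pairs, so a pairing by number was neither shown nor excluded. With the replicate number as a block the count was 23, with 0 of the 10 members called; ILMN_2632337, lower in the mutant of all 6 same-numbered pairs, had an adjusted p of 0.755 (limma). List medians kept their sign under all 23 alternatives for 11 of 17 lists.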
